A study of Mus musculus with 3 samples.

Results

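The 39 genes described here encode the machinery that brings new proteins into the endoplasmic reticulum (ER), folds them, carries them to the Golgi and signals when folding fails. They were chosen by symbol, and all 39 were found among the 32285 genes of the count matrices, with 40 identifiers because *Ddit3* had 2. All *Ddit3* unique molecular identifiers (UMIs, 1 per captured RNA molecule) lay on 1 of them. Their RNA was counted on Visium slides, on which each spot captures polyadenylated RNA with its own positional barcode, in skin wounds of C57BL/6J mice on Day 3, Day 7 and Day 14 after injury. According to the methods of the study, male mice aged 7 to 12 weeks received full-thickness punch wounds in the dorsal skin, and 1 section was taken per day. No transgene or treatment separated the days, and no unwounded section was compared.

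The sections of Days 3, 7 and 14 had 664, 549 and 697 spots under tissue, with medians of 1513, 6687 and 4827 UMIs per spot and totals of 1772259, 4442962 and 4611723 UMIs. The Day 3 section was the shallowest, and 144 of its spots held under 500 UMIs, where the later sections had 10 and 8 such spots. The 10 muscle genes were found in every section, and 212, 98 and 144 spots were muscle-rich, which means at least 2 times the muscle-list level of their section. The 10 epidermis genes and the 10 fibroblast genes were also all detected on each day. With 1 section per day there was no replicate, so no test between days was made, and every interval below covers counting error only. The 4992 barcodes were the same on the 3 slides because they name slide positions.

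Secreted and membrane proteins enter the ER through the Sec61 channel, fold with the help of chaperones and disulfide isomerases, and leave in COPII-coated vesicles. Procollagen needs helpers of its own, among them the chaperone HSP47, encoded by *Serpinh1*, and the prolyl hydroxylases. When unfolded proteins build up, the unfolded protein response raises chaperone genes through transcription factors such as ATF6 and XBP1, and a related factor, CREB3L1, is known for its part in collagen-secreting cells. In a healing wound, fibroblasts of the granulation tissue are the main source of new collagen.

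The promoter letters through which ATF6 and XBP1 are known to act are shown first. RefSeq promoter windows of GRCm38.p6, from 250 bases before to 50 bases after each gene start, were found for 31 of the 39 genes. Both strands were searched for the ER stress element ERSE (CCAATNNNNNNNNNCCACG), ERSE-II (ATTGGNCCACG) and the unfolded protein response element UPRE (TGACGTGG); all 3 hold the letters CCACG on one strand, and no 2 matches among these genes overlapped. Capitals mark the fixed letters, each sequence is printed on the strand that carries the motif, and negative positions lie before the gene start. ERSE was matched in 7 of the 31 genes, against 37 of all 27025 genes in the table (0.137%).
Hspa5 (chr2:34772025-34772043, -65 to -47): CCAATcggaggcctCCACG
Hsp90b1 (chr10:86705533-86705551, -107 to -89): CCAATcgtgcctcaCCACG
Hsp90b1 (chr10:86705638-86705656, -212 to -194): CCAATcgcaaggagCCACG
Calr (chr8:84847075-84847093, -162 to -144): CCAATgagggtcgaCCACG
Canx (chr11:50325800-50325818, -145 to -127): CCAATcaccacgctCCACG
Dnajc3 (chr14:118937827-118937845, -105 to -87): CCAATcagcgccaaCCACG
Creld2 (chr15:88819520-88819538, -126 to -108): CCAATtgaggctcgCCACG
Pdia6 (chr12:17266491-17266509, -98 to -80): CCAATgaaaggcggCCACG

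The shorter ERSE-II was matched in *Dnajb11* and *Herpud1*, against 12 of 27025 genes (0.0444%), and UPRE in 3 genes of vesicle traffic, *Kdelr3*, *Sec23a* and *Sec24d*, against 193 of 27025 genes (0.714%). None of the 4 collagen chaperones with a window held any of the 3 motifs, which says only that these letters are absent from these windows.
Dnajb11 (chr16:22857852-22857862, 7 to 17): ATTGGcCCACG
Herpud1 (chr8:94386377-94386387, -52 to -42): ATTGGgCCACG
Kdelr3 (chr15:79516378-79516385, -30 to -23): TGACGTGG
Sec23a (chr12:59012004-59012011, 6 to 13): TGACGTGG
Sec24d (chr3:123267470-123267477, -26 to -19): TGACGTGG

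The first question was how the level of these genes differed between the days of healing. Levels are CPM, the UMIs of a gene per 1000000 UMIs of all genes in the spots under tissue. The 39 genes together held 8917 CPM (95% interval 8778 to 9057) in the Day 3 section, 10293 (10199 to 10388) in that of Day 7 and 6720 (6645 to 6795) in that of Day 14. The Day 7 section was the highest and the Day 14 section the lowest. *Serpinh1* alone gave 15.8%, 23.5% and 13.3% of this sum in the Day 3, Day 7 and Day 14 sections. In bulk spots, fewer cells of a type and less RNA per cell cannot be told apart.

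A gene was called higher or lower where its CPM differed at least 1.5-fold and it had at least 50 UMIs over both sections. On Day 7 against Day 3, 12 of the 39 genes were called higher and 3 lower, where 19.5% of all 10541 genes counted were called higher and 15.5% lower. On Day 14 against Day 7, 4 were called higher and 15 lower, against 23.4% and 15.3% of 11746 genes. On Day 14 against Day 3, 1 was called higher and 9 lower, against 28.4% and 14.3% of 10955 genes. The median log2 ratio of the 39 genes was 0.00, -0.24 and -0.32 in these 3 comparisons, and that of all genes counted was 0.04, 0.13 and 0.18. TMM scaling moved the median of all genes on Day 14 over Day 7 to 0.00. The split of the 39 genes became 2 higher and 18 lower, against 18.2% and 19.2% of all genes. DESeq2 size factors gave 11 higher and 5 lower on Day 7 over Day 3, against 18.2% and 16.9%. For Day 14 over Day 3 the counts depended on the weighting. The mean of spot CPM, which counts each spot equally, gave 8 higher and 5 lower, with a median of 0.36 over all genes. Of all genes, 40.6% were then called higher and 14.9% lower. TMM scaling gave 0 higher and 13 lower, against 22.2% and 19.1% of all genes.

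**Figure D1:**
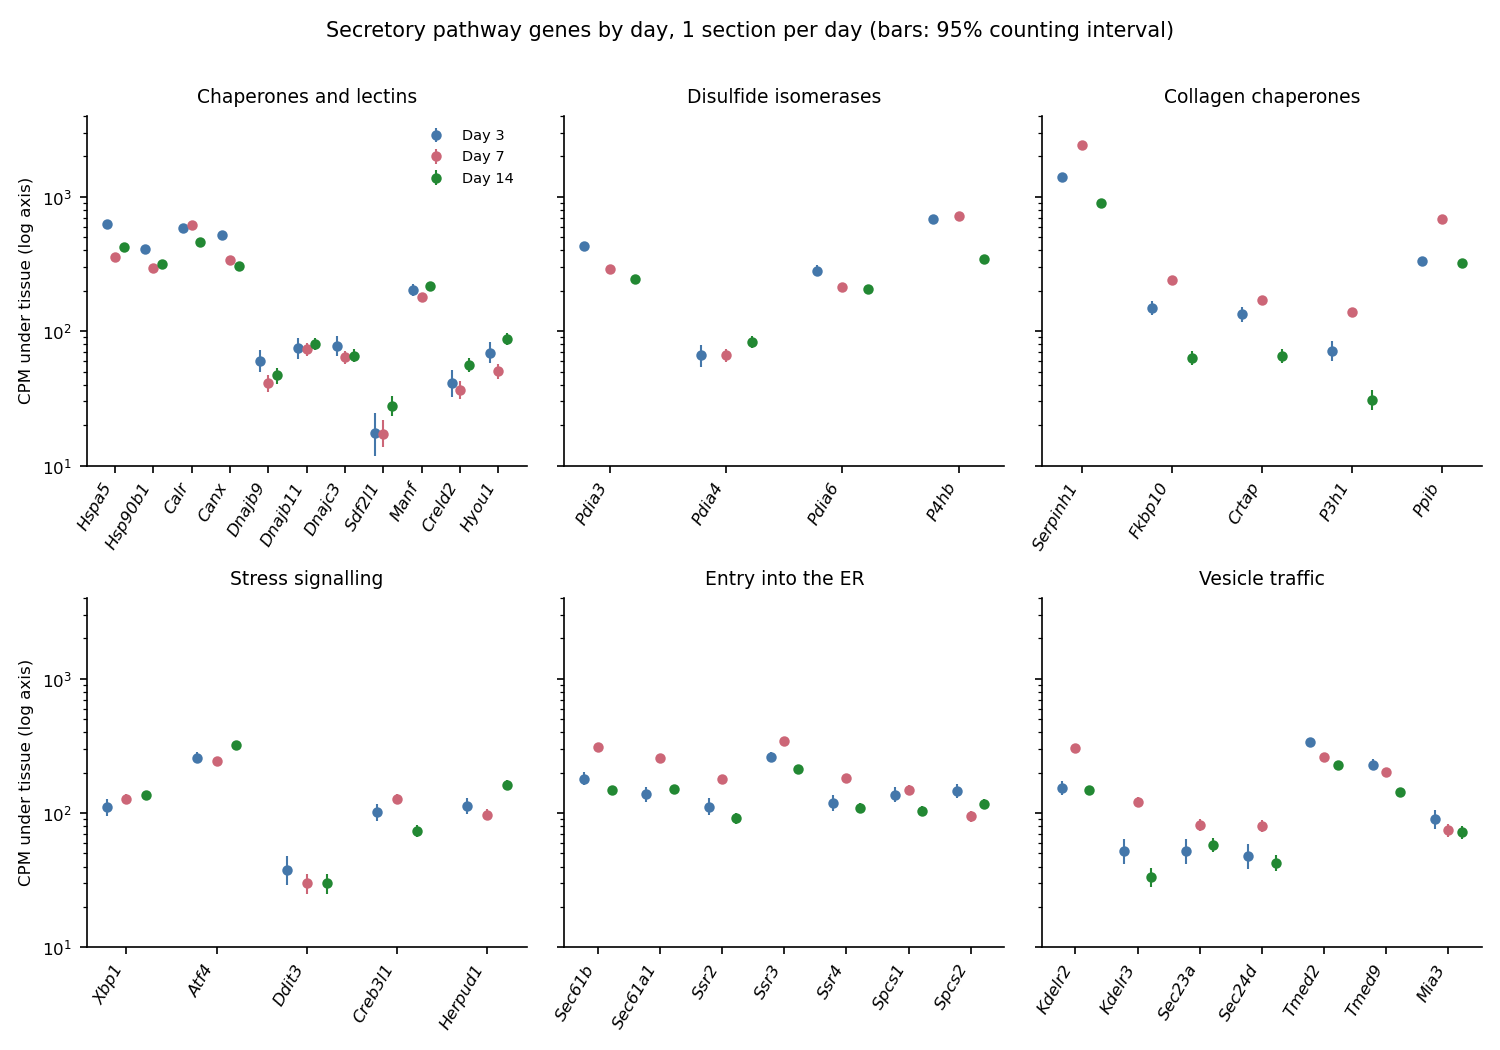
CPM of the 39 genes under tissue on each day (log axis), 1 point per gene and section, grouped by role, with 95% counting intervals. The 5 collagen chaperones have their highest point on Day 7 and their lowest on Day 14. Of the 13 general stress genes, drawn with the chaperones and with stress signalling, 11 have their lowest point on Day 7. On Day 7 over Day 3 the log2 ratio intervals of 4 of these 13 lie below 0 and those of 9 hold 0. The share of all genes with such intervals was not counted.

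The collagen chaperones shared 1 course, up to Day 7 and down to Day 14. *Serpinh1*, whose product HSP47 holds the procollagen triple helix, was at 1406, 2416 and 895 CPM on Days 3, 7 and 14, the order of days in every triplet of values below. That is a log2 ratio of 0.78 (0.72 to 0.84) on Day 7 over Day 3 and of -1.43 (-1.48 to -1.38) on Day 14 over Day 7. *Ppib*, which encodes the prolyl isomerase cyclophilin B, was at 331, 685 and 322 CPM, with a log2 ratio of -0.0417 (-0.18 to 0.10) on Day 14 over Day 3 that counting error spans. *P3h1* and *Crtap* encode the partners of cyclophilin B in the complex that hydroxylates proline 3 positions. *P3h1* was at 71.7, 138 and 31.0 CPM and *Crtap* at 134, 171 and 65.7 CPM. *Fkbp10*, another prolyl isomerase that acts on procollagen, was at 149, 242 and 63.3 CPM. All 5 were highest on Day 7 and lowest on Day 14, 4 of 5 were called higher on Day 7 over Day 3 with *Crtap* the exception, and 5 of 5 were called lower on Day 14 over Day 7.

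Most chaperones of general use had another course, and 9 of the 11 chaperones and lectins were lowest on Day 7. On Day 7 over Day 3 the log2 ratio intervals of 5 of these 11 lay below 0 and those of 6 held 0. Neither the share of all genes with such intervals nor the share with each order of days was counted. *Hspa5*, which encodes the ER chaperone BiP, was at 629, 358 and 423 CPM, a log2 ratio of -0.81 (-0.92 to -0.70) on Day 7 over Day 3. *Hsp90b1*, the ER member of the HSP90 family, was at 410, 296 and 316 CPM. Among the lectin chaperones, which hold glycoproteins until they are folded, *Canx* was at 523, 339 and 305 CPM and *Calr*, with the order of days of the collagen chaperones, at 584, 618 and 462 CPM. *Canx* and *Hspa5* were called lower on Day 7 over Day 3 and no gene of the 11 chaperones and lectins was called higher. *Hyou1*, which encodes a nucleotide exchange factor of BiP, was at 69.4, 50.4 and 87.6 CPM, *Creld2* at 41.2, 36.7 and 55.9, and *Sdf2l1* at 17.5, 17.3 and 28.0. These 3 were called higher on Day 14 over Day 7, with log2 ratios of 0.80, 0.61 and 0.69, and *Sdf2l1* was the only gene of the 39 called higher on Day 14 over Day 3. *Sdf2l1* had 31 UMIs in the Day 3 section. With TMM or DESeq2 factors, 2 of the 39 genes rather than 4 were called higher on Day 14 over Day 7. On Day 14 over Day 3 these factors left 0 called higher. *Dnajb9*, *Dnajb11* and *Dnajc3*, which encode J-domain partners of BiP, and *Manf* stayed within 1.5-fold in all 3 comparisons.

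Of the 4 disulfide isomerases, none was called on Day 7 over Day 3. *P4hb*, whose product also serves as a subunit of the collagen prolyl 4-hydroxylase, was at 683, 724 and 344 CPM, a log2 ratio of -1.07 (-1.16 to -0.99) on Day 14 over Day 7. *Pdia3*, the partner of the lectin chaperones, was at 429, 289 and 244 CPM, and *Pdia6* at 283, 213 and 206. *Pdia4* was at 66.02, 66.2 and 82.8 CPM. *P4hb* and *Pdia3* were called lower on Day 14 over Day 3.

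The stress signalling genes showed no common direction. *Xbp1* was at 111, 128 and 136 CPM, and *Atf4*, the factor translated under the integrated stress response, at 259, 243 and 320. *Ddit3*, which encodes the factor CHOP, was at 37.8, 29.9 and 29.9 CPM, with a log2 ratio of -0.34 (-0.77 to 0.11) on Day 7 over Day 3. None of these 3 was called in any comparison. *Herpud1*, a factor of ER-associated degradation, was at 113, 97.01 and 163 CPM and was called higher on Day 14 over Day 7 (0.75, 0.57 to 0.92). *Creb3l1* ran the other way, at 102, 127.2 and 73.5 CPM, and was called lower on Day 14 over Day 7 (-0.79, -0.99 to -0.59).

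Genes for entry into the ER had the course of the collagen chaperones in most cases. Of the Sec61 channel subunits, *Sec61b* was at 181, 312 and 149 CPM and *Sec61a1* at 138, 259 and 150. Of the translocon-associated proteins, *Ssr2* was at 112, 179 and 91.7 CPM, *Ssr3* at 262, 343 and 214, and *Ssr4* at 119, 183 and 110. Except for *Ssr3*, these were called higher on Day 7 over Day 3, and all 5 were called lower on Day 14 over Day 7. Of the signal peptidase subunits, *Spcs1* had the same order of days within 1.5-fold, at 137, 150 and 103 CPM, whereas *Spcs2* was at 146, 94.3 and 116 and was called lower on Day 7 over Day 3 (-0.63, -0.86 to -0.40).

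Vesicle traffic split into 2 sets. The receptors that return escaped ER proteins from the Golgi, *Kdelr2* and *Kdelr3*, were at 155, 307 and 147 CPM and at 51.9, 122 and 33.2 CPM. The log2 ratio of *Kdelr3* on Day 7 over Day 3 was 1.23 (0.91 to 1.56), the highest of the 39 genes. The COPII coat genes *Sec23a* and *Sec24d* were at 51.9, 82.2 and 58.3 CPM and at 48.0, 80.6 and 42.7 CPM. These 4 genes were called higher on Day 7 over Day 3, and all but *Sec23a* were called lower on Day 14 over Day 7. The p24 cargo receptors *Tmed2*, at 335, 264 and 226 CPM, and *Tmed9*, at 230, 202 and 144 CPM, were highest on Day 3. So was *Mia3*, which encodes the procollagen export receptor TANGO1, at 89.7, 74.5 and 71.8 CPM. The counting intervals of *Mia3* overlapped between Day 3 (76.3 to 104.8 CPM) and Day 7 (66.7 to 83.0 CPM).

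**Figure D2:**
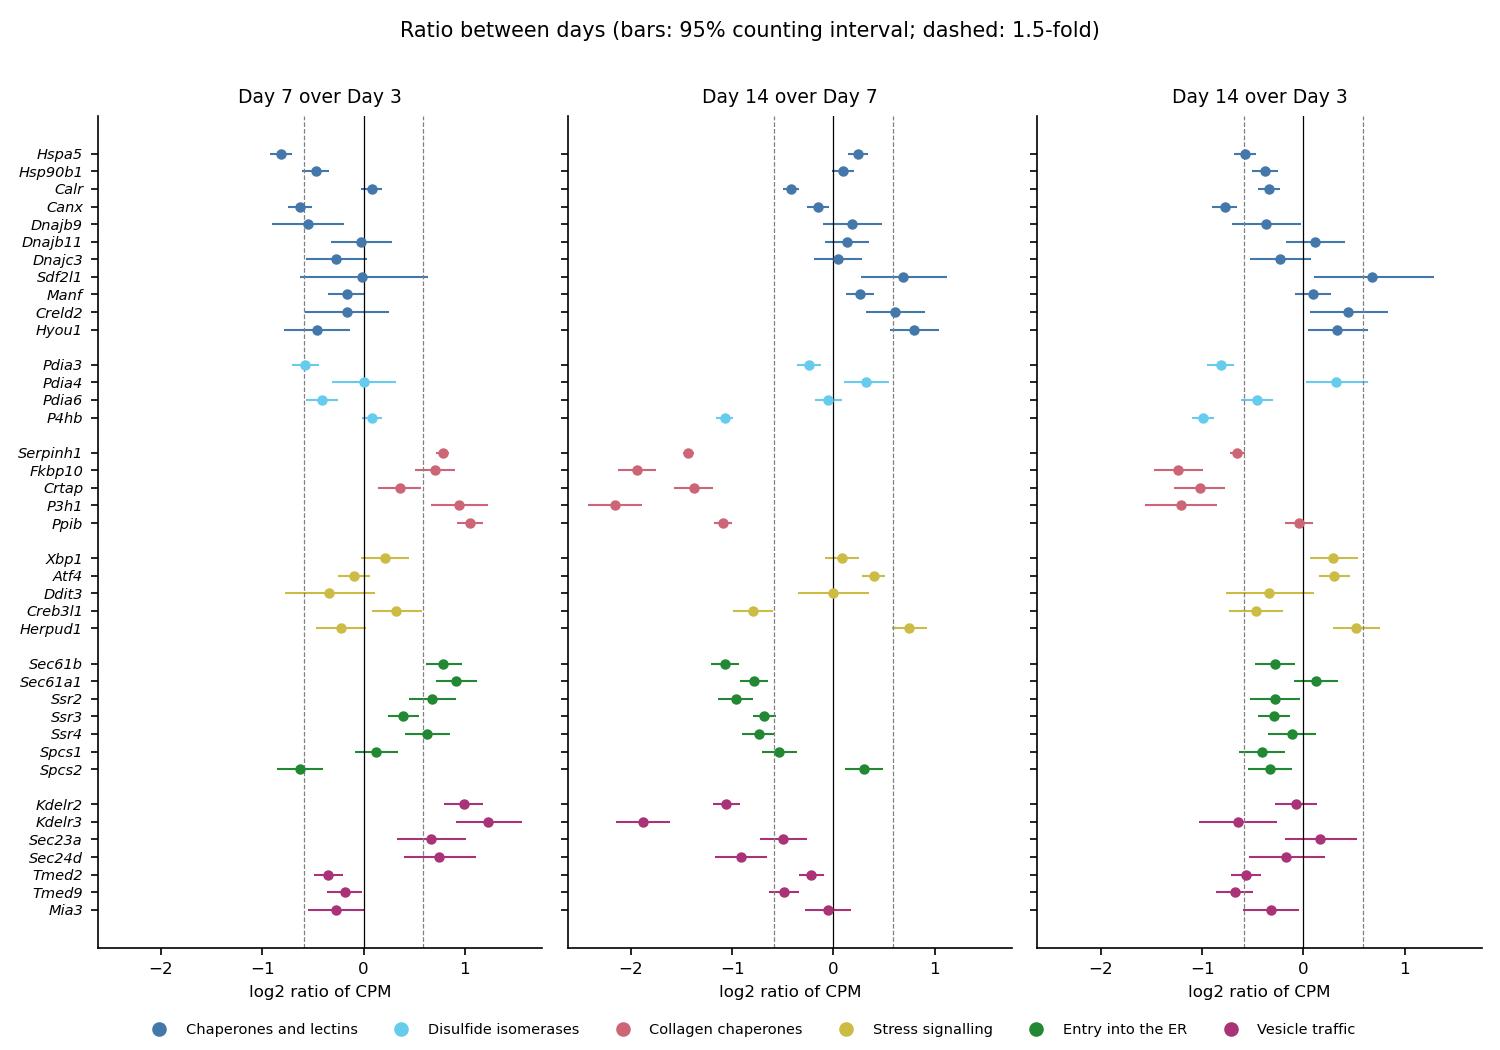
Log2 ratio of CPM for each of the 39 genes in the 3 comparisons of days, coloured by role, with 95% counting intervals and dashed lines at 1.5-fold. Collagen chaperones, ER entry genes and *Kdelr2*, *Kdelr3*, *Sec23a* and *Sec24d* lie to the right on Day 7 over Day 3 and to the left on Day 14 over Day 7, with *Spcs2* the exception, and *Hyou1*, *Herpud1*, *Sdf2l1* and *Creld2* lie to the right of the dashed line on Day 14 over Day 7.

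The genes with a motif match had different ratios by motif. On Day 7 over Day 3 the 7 genes with ERSE had log2 ratios from -0.81 to 0.08, and 2 of them were called lower and 0 higher. The 3 genes with UPRE had ratios from 0.66 to 1.23, and all 3 were called higher. Genes with these motifs outside the 39 were less uniform. Of 7 other genes with ERSE that were counted, 4 were called higher and 1 lower, and of 87 other genes with UPRE, 22 were called higher and 6 lower, where 19.5% of all genes were called higher and 15.5% lower. These counts are small and are a description only. A match describes the letters in the window, and binding was not measured.

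The next question was how the 5 collagen chaperones stood against the 13 general stress genes, a ratio within each section that does not depend on its total. The stress list held *Hspa5*, *Hsp90b1*, *Hyou1*, *Dnajb9*, *Dnajb11*, *Dnajc3*, *Sdf2l1*, *Manf*, *Creld2*, *Herpud1*, *Xbp1*, *Atf4* and *Ddit3*. Collagen chaperones summed to 2091, 3652 and 1377 CPM and stress genes to 2102, 1614 and 1969 CPM. Per stress UMI there were 0.995 (0.9502 to 1.04) collagen chaperone UMIs in the Day 3 section, 2.26 (2.20 to 2.33) in that of Day 7 and 0.699 (0.677 to 0.722) in that of Day 14. The log2 change of that ratio was 1.19 (1.11 to 1.26) from Day 3 to Day 7 and -1.69 (-1.76 to -1.63) from Day 7 to Day 14. Day 14 over Day 3 gave -0.51 (-0.59 to -0.43). *Serpinh1* gave 67.2%, 66.1% and 65.0% of the collagen chaperone UMIs, and without it the 3 changes were 1.23, -1.65 and -0.41. *Hspa5* gave 29.9%, 22.2% and 21.5% of the stress UMIs. Without *Hspa5* and *Hsp90b1* the 3 changes were 0.95, -1.76 and -0.81.

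The level of collagen itself moved with this ratio. The 10 collagen chain genes summed to 5.03%, 7.52% and 3.72% of all UMIs. Per 1000 collagen chain UMIs there were 41.6 (40.2 to 43.0) collagen chaperone UMIs in the Day 3 section, 48.6 (47.8 to 49.4) in that of Day 7 and 37.0 (36.1 to 38.0) in that of Day 14. These differed less between days than the chaperone CPM did. The stress genes came to 41.8, 21.5 and 52.9 UMIs per 1000 collagen chain UMIs, lowest on Day 7. The fibroblast list stood at 33763, 47372 and 22882 CPM and the granulation list at 1478, 9105 and 1846 CPM on the 3 days, and their part in the day differences was not tested. The fibroblast list includes *Col1a2*, *Col3a1* and *Col5a2* and the granulation list *Col12a1*, so neither is separate from the collagen chain genes.

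Of 77 further genes of the secretory pathway and the stress response, 11 of 74 counted were called higher (14.9%) and 12 lower (16.2%) on Day 7 over Day 3, near the 19.5% and 15.5% of all genes. On Day 14 over Day 7, 8 of 75 were higher (10.7%) and 22 lower (29.3%), against 23.4% and 15.3% of all genes, and on Day 14 over Day 3, 5 of 75 were higher (6.67%) and 20 lower (26.7%), against 28.4% and 14.3%. The highest on Day 7 over Day 3 were *Dad1*, a subunit of the oligosaccharyltransferase (126 to 259 CPM), *Syvn1*, the ubiquitin ligase of ER-associated degradation (20.3 to 40.7 CPM), and *Colgalt1*, a collagen galactosyltransferase (119 to 238 CPM). The lowest were the stress factor *Atf3* (41.2 to 8.33 CPM), the ER oxidase *Ero1l* (63.8 to 19.6 CPM) and *Cebpb* (538 to 212 CPM). On Day 14 over Day 7 the lowest were *Pdia5* (59.2 to 13.9 CPM) and the collagen lysyl hydroxylases *Plod2* (17.6 to 5.20 CPM) and *Plod3* (131 to 48.1 CPM). The highest were *Chac1*, a target of ATF4 (12.6 to 89.99 CPM), *Ero1l* (19.6 to 46.0 CPM) and *Cebpb* (212 to 449 CPM).

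A further question was where in the section these genes were high. Among spots with at least 500 UMIs, the summed CPM of the collagen chaperones per spot had medians of 1324, 3194 and 1230, and the central 80% of spots lay between 0 and 3649, between 1485 and 4791 and between 340 and 2353 CPM. For the stress genes the medians were 1688, 1530 and 1857, with central ranges of 0 to 3882, 767 to 2254 and 708 to 2795 CPM. The Day 3 spots had the widest range for the stress genes and were also the shallowest.

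**Figure D3:**
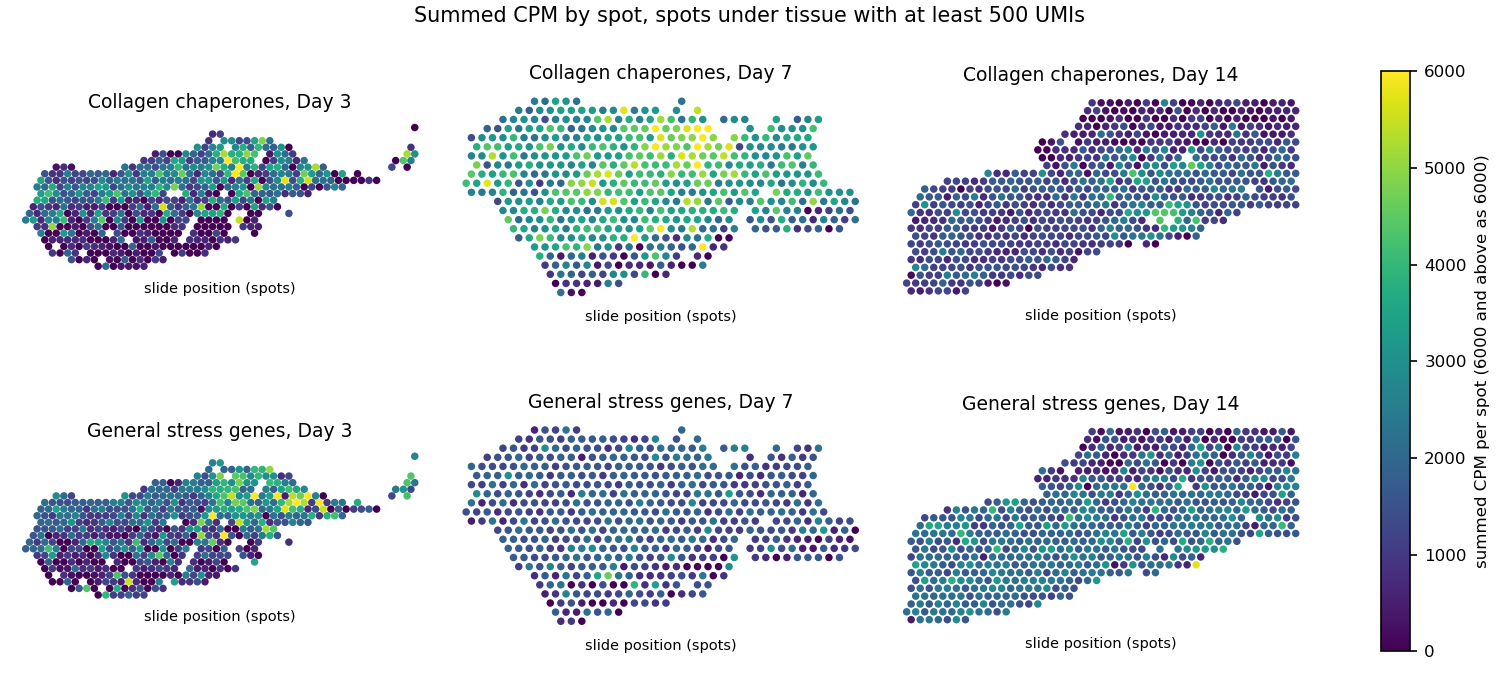
Slide maps of summed CPM per spot for the 5 collagen chaperones (top) and the 13 general stress genes (bottom), 1 section per day, 520, 539 and 689 spots. On Day 3 both lists are high toward the right end, on Day 7 the collagen chaperones are high over most of the section while the stress genes are even, and on Day 14 the collagen chaperones stand out in a patch near the lower right edge.

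Spots were next split by *Col1a1*, which encodes a chain of type I collagen, with *Col1a1* left out of the total. The 173, 180 and 230 spots with the highest *Col1a1* share were set against as many with the lowest. On Day 3, 31 of the 36 genes counted were called higher in *Col1a1*-high spots, against 47.3% of all genes, and 0 lower, against 17.4%. On Day 7, 21 of 39 were called higher, against 16.1%, and 0 lower, against 10.3%. On Day 14, 14 of 39 were called higher, against 18% of all genes, and 0 lower, against 5.79%. The collagen chaperones were called higher in all 5 cases on each day. Their sum was 2675 CPM in *Col1a1*-high and 643 in *Col1a1*-low spots of Day 3, 4340 and 2480 for Day 7, and 1945 and 883 for Day 14. The log2 ratios were 2.06 (1.87 to 2.25), 0.81 (0.74 to 0.88) and 1.14 (1.04 to 1.24), and those of the stress genes were 0.98 (0.83 to 1.13), 0.29 (0.19 to 0.39) and 0.33 (0.25 to 0.41).

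Muscle moved with this split. The muscle list stood at 20300 CPM in *Col1a1*-high and 94186 in *Col1a1*-low spots on Day 3, at 39459 and 83960 on Day 7 and at 52760 and 79014 on Day 14, and the *Col1a1*-high spots were deeper (medians of 3022, 11235 and 5417 UMIs, against 1769, 2982 and 3396). Without the muscle-rich spots, the Day 3 ratio of the collagen chaperones was 0.15 (0.04 to 0.27) and that of the stress genes -0.11 (-0.22 to 0.01). Then 4 of 36 genes were called higher and 2 lower, against 13.5% of all genes higher. The share of all genes called lower was not counted without these spots, so the 2 cannot be set against it. On Day 7 the collagen chaperones then stood at 0.47 and the stress genes at 0.11, with 6 of 38 genes called higher, against 7.65% of all genes. On Day 14 they stood at 0.87 and 0.0532, with 7 of 39 genes called higher, against 9.34% of all genes. The part of depth was not tested.

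Single genes differed within this split. *Fkbp10* had log2 ratios of 2.33, 1.19 and 2.17 on the 3 days, and *Creb3l1* of 3.18, 0.93 and 1.74. *Kdelr3* had 2.71, 0.88 and 1.37, and *P3h1* 3.51, 0.77 and 0.86. *Serpinh1* had 2.20, 0.77 and 1.31. These 5 genes were called higher on every day, as were *Ppib*, *Crtap*, *P4hb*, *Pdia3*, *Pdia4*, *Sec24d* and *Sec61a1*. The single-gene ratios are given with the muscle-rich spots included only. Without those spots the Day 3 ratio of the summed collagen chaperones was 0.15 in place of 2.06. On Day 3 the *Col1a1*-low spots held 4 UMIs of *Kdelr3* against 47 in the *Col1a1*-high spots (interval of the log2 ratio 1.26 to 4.65) and 3 UMIs of *P3h1* against 61 (1.89 to 5.82). *Creb3l1* had 180 UMIs in all under the Day 3 tissue, so its ratio there also rests on few UMIs in the low spots. *Ddit3*, *Sdf2l1* and *Creld2* had fewer than 50 UMIs over both sets of Day 3 spots and were not counted there. *Hspa5* had 1.33, 0.29 and 0.35, and *Xbp1* had 0.48, 0.27 and 0.30, within 1.5-fold on each day. *Herpud1*, at -0.0919, -0.00632 and 0.38, was within 1.5-fold too.

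The same was done with *Postn*, which encodes the matricellular protein periostin of granulation tissue and stood at 240, 3692 and 550 CPM on the 3 days. Spots above the 67th percentile were set against those at or below the 33rd, which on Day 3 were 346 spots with no *Postn* UMI. The *Postn*-high spots were deeper, with medians of 4660, 10938 and 5567 UMIs against 1599, 3201 and 3389, and held less muscle, with 19123, 35008 and 53075 CPM of the muscle list against 61672, 82228 and 79085. The part of depth was not tested here either. On Day 3, 23 of 38 genes were called higher in *Postn*-high spots, against 21.4% of all genes, and 0 lower, against 9.19%. On Day 7, 22 of 39 were called higher, against 15.7%, and 0 lower, against 11.5%. On Day 14, 8 of 39 were called higher, against 12.9%, and 0 lower, against 4.25%. The log2 ratios of the collagen chaperones were 1.05, 0.72 and 0.80, and those of the stress genes 0.50, 0.33 and 0.19. Without the muscle-rich spots the ratios were smaller, at 0.80, 0.49 and 0.61 for the collagen chaperones and at 0.34, 0.18 and 0.0162 for the stress genes, whose Day 14 interval then held 0 (-0.0653 to 0.0977). Then 13 of 36, 11 of 38 and 5 of 39 genes were called higher, against 11.8%, 9.82% and 8.11% of all genes.

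**Figure D4:**
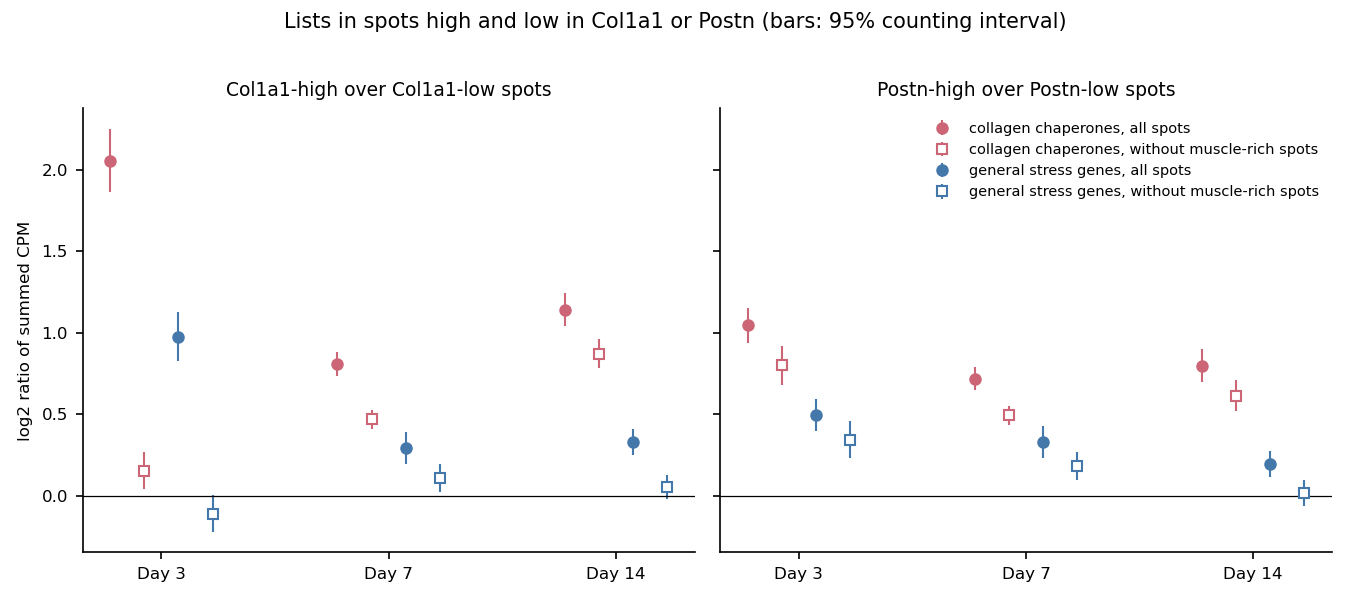
Log2 ratio of summed CPM in *Col1a1*-high over *Col1a1*-low spots (left) and *Postn*-high over *Postn*-low spots (right) by day, for collagen chaperones (red) and general stress genes (blue), with all spots (filled) and without muscle-rich spots (open) and 95% counting intervals. Within each marker the red points lie above the blue points of the same day, and both open points of the *Col1a1* split on Day 3 lie close to 0.

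Across spots with at least 1000 UMIs, each thinned to 1000 UMIs, the summed UMIs of the 39 genes had a Pearson r with *Col1a1* of 0.367, 0.457 and 0.433 over 426, 525 and 679 spots. With *Postn* r was 0.228, 0.358 and 0.208, and without the muscle-rich spots -0.000681, 0.235 and 0.123. The median r of all genes was between 0.00375 and 0.0230. For the collagen chaperones r with *Col1a1* was 0.412, 0.398 and 0.344 and for the stress genes 0.207, 0.139 and 0.204, and the 2 lists had r of 0.291, 0.0723 and 0.0743 with each other. These are descriptions within 1 section, whose spots share the library. Without the muscle-rich spots the 39 genes had r of 0.0534, 0.222 and 0.227 with *Col1a1*.

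Spots richest in the markers of a cell type were compared last, as the top 10% of spots by each list of 10 markers against the other spots. The lists name regions, since a spot can hold several cell types. The fibroblast list includes the collagen genes *Col1a2*, *Col3a1* and *Col5a2*, and the granulation list includes *Col12a1* and *Postn*. Both lists are thus in part measures of collagen or *Postn* itself. On Day 14 the collagen chaperones stood at 2623 CPM in the fibroblast-richest and 1244 in the other spots (log2 ratio 1.08, 0.98 to 1.17) and at 2589 and 1246 CPM for the granulation list (1.05, 0.96 to 1.15). The stress genes stood at 2119 and 1953 CPM (0.12, 0.02 to 0.22) and at 2053 and 1960 CPM (0.0667, -0.03 to 0.17). On Day 7 the ratios of the collagen chaperones were 0.51 and 0.57 and those of the stress genes 0.11 and 0.19. *Fkbp10* had the highest ratio of the 39 genes in both sets of spots on Day 14, 2.15 (1.78 to 2.51) and 1.97 (1.59 to 2.34).

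In the granulation-richest spots of Day 3 both lists were high. The stress genes stood at 3616 CPM against 1940 in the other spots, a log2 ratio of 0.90 (0.77 to 1.02), and the collagen chaperones at 3179 against 1980, a ratio of 0.68 (0.55 to 0.81). The order of the lists turned round in the top 20% of spots, where the ratios were 0.79 for the stress genes and 0.96 for the collagen chaperones. *Pdia4* (1.54, 0.88 to 2.16), *Creld2* (1.53, 0.68 to 2.32) and *Hsp90b1* (1.36, 1.10 to 1.61) had the highest ratios among genes with at least 50 UMIs. In the fibroblast-richest spots of the same section the stress genes had a ratio of -0.17 (-0.30 to -0.04), *Hspa5* of -0.56 (-0.82 to -0.31), and the collagen chaperones of 0.44 (0.32 to 0.55). The 52 granulation-richest spots of Day 3 held 3611 CPM of the neutrophil list against 2232 in the others, 6723 against 4257 of the macrophage list, 28937 against 34570 of the fibroblast list and 22983 against 39156 of the muscle list. Without the muscle-rich spots the ratio of the stress genes was 0.78. The part of the neutrophil and macrophage lists was not tested, nor was any difference from the later days, and the granulation list was at its lowest level in this section.

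In the muscle-richest spots both lists were low on each day. The collagen chaperones had log2 ratios of -2.78, -1.59 and -1.76 and the stress genes of -1.46, -0.96 and -1.05 on Day 3, Day 7 and Day 14. In the neutrophil-richest spots on Day 3 the stress genes had a ratio of 0.37 (0.17 to 0.57) and the collagen chaperones of -0.19 (-0.43 to 0.05), neither past 1.5-fold, with *Hspa5* at 0.86 (0.53 to 1.17). In epidermis-richest spots the collagen chaperones were low, at -0.41, -0.36 and -0.42, and the stress genes were at -0.04, -0.13 and 0.04, with *Herpud1* at 0.62 (0.37 to 0.87) on Day 14. In sebaceous-richest spots *Xbp1* had a ratio of 1.03 (0.57 to 1.47) on Day 3 and 0.50 (0.20 to 0.78) on Day 14, and *Creld2* of 0.91 (0.48 to 1.32) on Day 14. The hair list held 19 UMIs on Day 3 and 40 on Day 7, too few to place spots. On Day 14 the hair-richest spots had ratios of -0.29 for the collagen chaperones and 0.19 for the stress genes. For the macrophage list the ratios were 0.56, 0.30 and 0.77 for the collagen chaperones and 0.38, 0.12 and -0.07 for the stress genes. For the endothelium list they were 0.62, 0.23 and -0.00348 for the collagen chaperones and 0.20, 0.12 and -0.28 for the stress genes, and for the fat list -0.91, -0.17 and -0.38 and -0.82, -0.08 and -0.39. The plasma cell list held 104, 218 and 263 UMIs, with 4, 3 and 4 of its genes at 0, and was read no further.

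**Figure D5:**
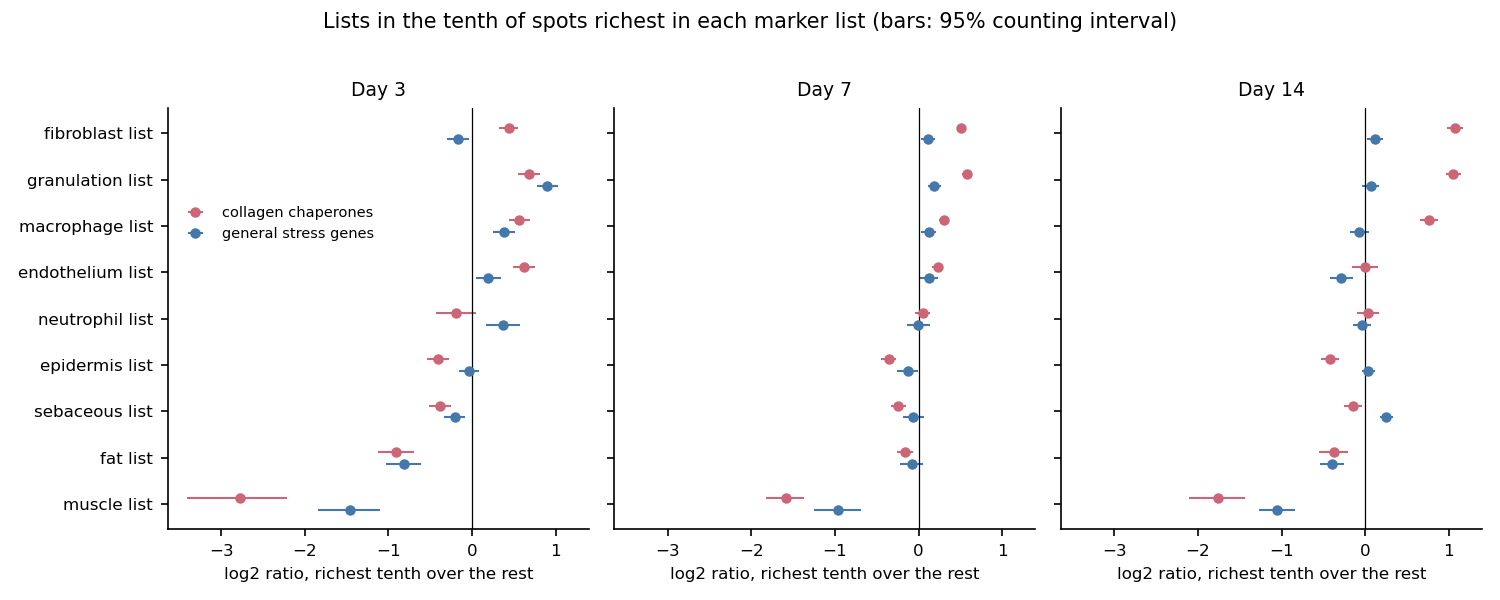
Log2 ratio of summed CPM in the 10% of spots richest in each marker list over the other spots, for collagen chaperones (red) and general stress genes (blue) on each day, with 95% counting intervals. Red points lie to the right for the fibroblast and granulation lists on all 3 days, and the blue point of the granulation list lies at 0.90 on Day 3 and below 0.20 on Day 7 and Day 14.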

How the data were processed

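Raw UMI counts per gene and spot were deposited by the authors for 3 Visium sections, with no normalization. The submitters' processing notes name Space Ranger 1.3.0 and the build mm10. Deposited position lists mark the spots under tissue, and these were used unless stated otherwise. Counts of a gene were summed over spots and given per 1000000 UMIs of every gene (CPM), and identifiers with the same symbol were summed. Sums carry exact Poisson and ratios exact conditional binomial 95% intervals for counting error only. With 1 section per day no p-value was computed. Spots with at least 500 UMIs entered the splits by *Col1a1*, *Postn* and marker lists, and thinning to 1000 UMIs (seed 1) preceded correlations. No doublet caller was run, since spots are regions. The 39 genes, the lists and the rules were chosen with earlier results of these data known. All 39 genes were named, with the 3 highest and 3 lowest of the further pathway genes on Day 7 over Day 3 and on Day 14 over Day 7. *Krt85* of the hair list was not found. Alternatives included TMM factors (edgeR 4.0.16), size factors (DESeq2 1.42.0), the mean of spot CPM, other spots, folds and minimums. Leaving out muscle-rich spots in the marker splits and the counts of genes, and *Serpinh1* from its list, were added after seeing the data, as was the top 20% of spots. Calculations used Python 3.11.15, numpy 2.4.6, scipy 1.17.1, pandas 2.3.3, matplotlib 3.10.9 and R 4.3.3, and were tested on simulated data with known folds. Promoter windows came from RefSeq, GRCm38.p6. Protein sequences were not used here.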

Additional observations from a re-analysis of the deposited data

Results flagged for a closer look

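*Atf4* went opposite ways on different days within the sections, beyond counting error on Day 3 and Day 7. Its log2 ratio in *Postn*-high over *Postn*-low spots was 0.38, -0.28 and -0.0503 on Days 3, 7 and 14. In the granulation-richest spots over the others it was 0.60, -0.36 and -0.22. No other gene of the 39 with at least 50 UMIs did so in the splits by *Col1a1*, *Postn* and the granulation list. Whether the days differ was not tested.

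UMIs of these genes were also found in spots not marked as tissue, in data that no comparison above used. Their summed level there was 4588, 5905 and 4515 CPM in the Day 3, Day 7 and Day 14 sections, which is 0.515, 0.574 and 0.672 times the level under tissue. Those spots held 49.0%, 59.2% and 50.6% of all UMIs of the 3 slides.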

How the results depend on the processing

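With 1 section per day, no alternative can stand in for replicates. No paired analysis was possible because the result comes from no test and each day has 1 section. Depth limited Day 3 most. Of the recomputed counts of genes called, 45 stayed within 1.5 times of the reported count and 21 did not. Of the ratios of single genes between days, 668 moved by less than their counting interval, 150 by more and 1 changed sign. A 2-fold rule gave 2 higher and 0 lower on Day 7 over Day 3, against 8.04% and 6.49% of all genes. The share of the 39 genes called higher was then no longer above that of all genes. The same rule gave 0 and 9 on Day 14 over Day 7, against 10.9% and 7.34%. On Day 14 over Day 3 it gave 0 and 3, against 14.4% and 6.83%. On Day 7 over Day 3, 6 were lower without muscle-rich spots (18.2% of all genes) and 5 with DESeq2 size factors (16.9%). TMM and DESeq2 factors each gave 2 higher on Day 14 over Day 7, against 18.2% of all genes. Both gave 0 higher on Day 14 over Day 3, against 22.2% and 21.8%. The latter comparison gave 8 higher and 5 lower with the mean of spot CPM, against 40.6% and 14.9% of all genes. With all spots of the slide it gave 4 lower, against 14.1%. *Kdelr3*, called lower on Day 14 over Day 3, had a log2 ratio of 0.11 with the mean of spot CPM. The cause was not tested.

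The change in collagen chaperones per stress UMI kept its direction in all alternatives. On Day 7 over Day 3 it was 1.32 with the mean of spot CPM, 1.01 with medians of single genes, 1.04 with *P4hb* added and 0.95 without *Hspa5* and *Hsp90b1*. On Day 14 over Day 7 it was -1.59 with the mean of spot CPM, -1.42 with all spots of the slide and -1.76 without *Hspa5* and *Hsp90b1*. On Day 14 over Day 3 it was -0.27, -0.32 and -0.81 in these, -1.14 with medians, -0.59 with *P4hb* and -0.41 without *Serpinh1*.

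Without muscle-rich spots the *Col1a1* ratios were 0.15, 0.47 and 0.87 for collagen chaperones and -0.11, 0.11 and 0.0532 for stress genes. The sign of the stress ratio changed on Day 3, but its interval of -0.22 to 0.01 spans no difference. The *Postn* ratios were then 0.80, 0.49 and 0.61, and 0.34, 0.18 and 0.0162, and genes called higher numbered 4, 6 and 7 for *Col1a1* and 13, 11 and 5 for *Postn*. Splits of the highest against the lowest 25% gave 2.42, 1.13 and 1.44 for collagen chaperones and 1.34, 0.42 and 0.47 for stress genes by *Col1a1*, and of 50% gave 0.58, 0.48 and 0.74, and 0.35, 0.14 and 0.17. By *Postn*, 25% gave collagen chaperones 0.95 on Day 7 and 0.99 on Day 14 and stress genes 0.60 on Day 3 and 0.30 on Day 14, 50% gave collagen chaperones 0.48 and 0.52 on Day 7 and Day 14, and spots with at least 1000 UMIs gave stress genes 0.60 on Day 3. In granulation-richest spots the top 20% gave collagen chaperones 0.96 on Day 3, above the 0.79 of the stress genes, and 0.85 on Day 14, and without muscle-rich spots they had 0.50 on Day 7 and the stress genes -0.0667 on Day 14.

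Correlations with *Col1a1* were 0.561 by Spearman on Day 3, 0.669, 0.778 and 0.726 without thinning, 0.332 and 0.321 on Day 7 and Day 14 at 500 UMIs, and 0.0534, 0.222 and 0.227 without muscle-rich spots. Those with *Postn* were 0.343, 0.698 and 0.441 without thinning, 0.0905 on Day 3 and 0.230 on Day 7 at 500 UMIs, and 0.492 on Day 7 at 2000 UMIs. Without muscle-rich spots they were -0.000681 on Day 3, in effect no correlation, and 0.235 on Day 7.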

Other observations

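Further ER genes had high values in the granulation-richest spots of Day 3. *Plod2*, a collagen lysyl hydroxylase, had 15 UMIs there and 29 in the other spots, a log2 ratio of 2.19 (1.19 to 3.14) that rests on fewer than the 50 UMIs asked of a gene elsewhere, and the ER oxidase *Ero1l* had 32 and 81 UMIs, a ratio of 1.80 (1.17 to 2.41). In the neutrophil-richest spots of the same section the ratios were 2.41 (1.17 to 3.50) for *Plod2* and 1.97 (1.16 to 2.71) for *Ero1l*. On Day 7 *Ero1l* had a ratio of -0.30 (-1.19 to 0.49) in the granulation-richest spots. These genes were chosen after their values were seen, and no difference between days was tested.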
